A study of Mus musculus with 26 samples.

Results

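K27-K4 marks chromatin that was precipitated with an antibody to H3K27me3 and then, after elution, with an antibody to H3K4me3, so that only nucleosomes carrying both marks should be recovered. The K27-K4 regions of WT and DPPA2/4 double knockout (DKO) mouse embryonic stem cells were compared here. The regions were those of the table for WT cells (31231 regions) plus those of the table for DKO cells that overlapped no WT region (15506 regions), giving 46737 of the 234170 regions in the 8 tables of the clones. WT cells were represented by clones 57 and 58 and DKO cells by clones 43 and 53, 1 K27-K4 library per clone, 4 of the 26 libraries of the series.

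All 4 clones were E14 mouse embryonic stem cells, an established line, grown on gelatin in serum with LIF and without any other treatment, and DKO clones lack both DPPA2 and DPPA4. Chromatin came from pellets of 2000000 formaldehyde-fixed cells, was cut with MNase to mononucleosomes and was then shared out between the H3K4me3, H3K27me3 and IgG antibodies, so that each reChIP used only a part of a pellet. All 4 libraries belong to sequencing batch C. The same clones were also profiled in the opposite order (K4-K27) and for in-line total H3K4me3 and total H3K27me3, which came from 10% of the chromatin set aside after the first precipitation. A reChIP with IgG at both steps (IgG-IgG) was used from WT clone 57 only. Some cross-reaction of the H3K4me3 antibody with H3K4me2 is known. Each genotype is thus represented by 2 clones, and p-values measure the spread between clones of a genotype.

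Trimethylation of H3K4, laid down by SET1 and MLL complexes, is found at the start sites of active genes, and trimethylation of H3K27, laid down by Polycomb repressive complex 2, is found at silent developmental genes. In embryonic stem cells many CpG-rich promoters of silent genes carry both marks, a state called bivalent and thought to keep genes ready for activation or stable silencing during differentiation. DPPA2 and DPPA4 are small DNA-binding proteins with a SAP domain that act as a pair in pluripotent cells and germ cells and are known to be needed for both marks at a subset of bivalent promoters. The comparison asks which K27-K4 regions depended on them.

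Levels are given as log2 RPM per kb, that is, the log2 of reads scaled to the total of the library and to the kb of region, and differences are DKO minus WT on this scale. The K27-K4 libraries held 15851034 to 23330124 reads, and the IgG-IgG library 14904560. The regions held 31.88% and 20.73% of the reads of WT clones 57 and 58, 21.6% and 18.63% of those of DKO clones 43 and 53, and 4.24% of the IgG-IgG reads. Across regions, Pearson's r was 0.57 between the WT clones, 0.67 between the DKO clones and 0.18 to 0.3 between clones of different genotype, where the points share libraries and widely differing read numbers. All 10 embryonic stem cell markers checked, among them Pou5f1, Nanog and Sox2, had regions of total H3K4me3 at their promoters in both genotypes. At Dppa4, total H3K4me3 was 2.34 and 1.45 in WT clones 57 and 58 and 2.39 and 1.56 in DKO clones 43 and 53, and no K27-K4 region lay at the promoter of Dppa2 or Dppa4. The promoter mark was therefore kept at the targeted genes and does not check the knockout, for which no other measurement was analysed here.

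The promoters of 3 genes at which K27-K4 was lower in DKO clones and of 3 genes with strong K27-K4 in every clone are printed to show what the sequences just upstream of the start site look like. Each sequence is the 250 bases before the start site, from RefSeq on GRCm38.p6, written 5′ to 3′ on the strand of the gene, with CpG dinucleotides in capitals. The 3 promoters with lower K27-K4 follow.
Pdzrn4 (chr15:92396560-92396809, + strand): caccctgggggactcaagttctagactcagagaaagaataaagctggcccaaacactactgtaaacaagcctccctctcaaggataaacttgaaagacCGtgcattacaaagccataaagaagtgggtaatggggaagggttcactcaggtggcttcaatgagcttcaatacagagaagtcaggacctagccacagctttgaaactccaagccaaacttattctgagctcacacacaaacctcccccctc
Dab1 (chr4:103619250-103619499, + strand): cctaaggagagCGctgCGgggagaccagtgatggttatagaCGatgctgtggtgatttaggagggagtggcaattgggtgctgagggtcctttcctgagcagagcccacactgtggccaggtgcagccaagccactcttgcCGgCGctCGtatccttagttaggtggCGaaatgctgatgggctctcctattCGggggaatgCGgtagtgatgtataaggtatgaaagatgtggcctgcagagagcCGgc
Slc22a3 (chr17:12507705-12507954, - strand): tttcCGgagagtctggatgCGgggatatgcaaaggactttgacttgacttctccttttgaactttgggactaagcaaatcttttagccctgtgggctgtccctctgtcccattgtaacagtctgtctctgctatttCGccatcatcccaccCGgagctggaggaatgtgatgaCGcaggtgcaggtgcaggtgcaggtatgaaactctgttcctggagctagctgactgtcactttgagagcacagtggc
The 3 promoters with K27-K4 in all clones follow.
Lhx4 (chr1:155742028-155742277, - strand): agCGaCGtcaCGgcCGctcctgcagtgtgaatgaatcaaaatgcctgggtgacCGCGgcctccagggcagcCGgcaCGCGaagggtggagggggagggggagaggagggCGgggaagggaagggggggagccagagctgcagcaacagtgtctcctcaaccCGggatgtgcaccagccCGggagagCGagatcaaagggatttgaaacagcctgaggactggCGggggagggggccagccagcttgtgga
Pcgf5 (chr19:36348079-36348328, + strand): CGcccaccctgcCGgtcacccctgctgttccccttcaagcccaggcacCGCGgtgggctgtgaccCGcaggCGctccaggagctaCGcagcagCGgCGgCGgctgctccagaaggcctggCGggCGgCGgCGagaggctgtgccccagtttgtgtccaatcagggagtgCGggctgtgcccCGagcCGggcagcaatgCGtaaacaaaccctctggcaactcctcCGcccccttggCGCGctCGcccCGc
Tlx3 (chr11:33203589-33203838, - strand): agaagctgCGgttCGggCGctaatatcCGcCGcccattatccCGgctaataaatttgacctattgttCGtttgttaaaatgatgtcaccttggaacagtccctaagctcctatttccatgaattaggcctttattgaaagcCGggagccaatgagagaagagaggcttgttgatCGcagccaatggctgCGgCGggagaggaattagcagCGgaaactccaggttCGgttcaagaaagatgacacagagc

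In these windows CpG was counted 1 time at Pdzrn4, 10 times at Dab1 and 5 times at Slc22a3, against 14 times at Lhx4, 23 times at Pcgf5 and 13 times at Tlx3. The 3 examples not called lower lie just outside the limits of the kept regions (defined later), with WT means of 3.64 at Lhx4, 3.58 at Pcgf5 and 3.61 at Tlx3, so the counts over all windows are given separately. The median number of CpG was 10 in 345 windows, of 307 genes, that lay in lower regions, 18 in 2832 windows in regions whose K27-K4 was kept, 15 in the 7661 windows that lay in any K27-K4 region and 6 in all 32851 windows of the RefSeq table. At least 10 CpG were found in 53.6% of the windows in lower regions, 79.1% of those in kept regions and 37.8% of all windows. Of the 403 genes with a lower region within 1.5 kb of a start site, 301 had an entry in the table, and a window may also lie in a lower region without its gene being among these.

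K27-K4 was called lower in DKO clones at 671 of 46737 regions (1.44%) and higher at 0 (0.0%), with a call made at a log2 difference of at least 1 and a Benjamini-Hochberg adjusted p under 0.05 over all regions in limma. At an unadjusted p under 0.05, 6340 regions were lower and 2750 higher, and the smallest adjusted p of a region with a higher DKO level was 0.0546. With the libraries put on a common distribution by quantile normalisation, 615 regions were called lower and 99 higher, and with centring on the median of each library 456 and 4 were called. The median difference over all regions was -0.19, and 0.03 after centring. It mixes 17494 regions listed in the table of WT cells only (median -1.15), 15506 listed in that of DKO cells only (0.98) and 13737 listed in both (-0.17). Regions of the first 2 kinds entered the set through the genotype in which they were found, so their direction was close to fixed. The count depended on the clones, with 387 regions called lower without WT clone 57, 2072 without WT clone 58, 558 without DKO clone 43 and 563 without DKO clone 53. The number called higher was 589 without WT clone 57 and 1706 without WT clone 58. In each of these 4 fits all 671 regions stayed at a difference of -1 or lower, but only 313, 653, 296 and 373 of them, in the same order, were called. Since the assay averages over a culture, fewer cells carrying both marks and fewer doubly marked nucleosomes per cell cannot be told apart.

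**Figure D1:**
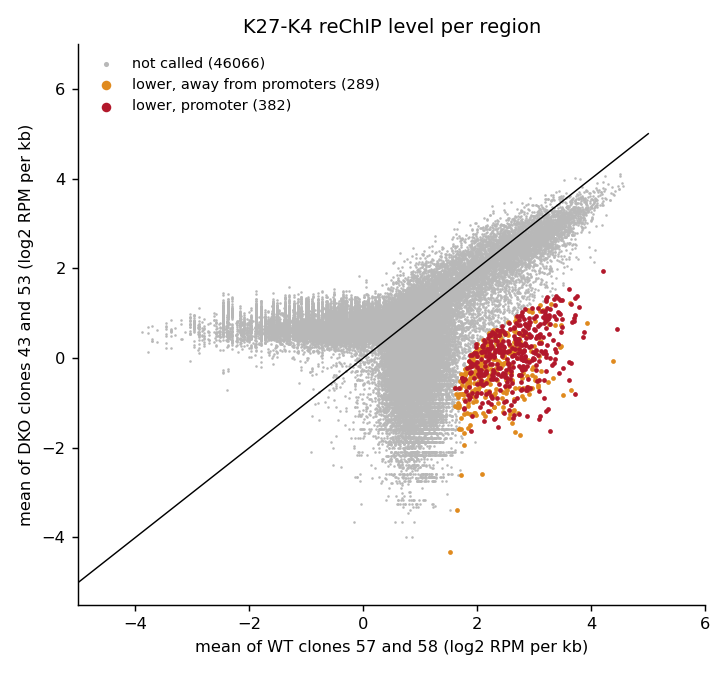
K27-K4 level of each of the 46737 regions, with the mean of the WT clones on the x axis and the mean of the DKO clones on the y axis (both log2 RPM per kb). The 382 lower promoter regions and 289 lower regions away from promoters lie under the line of equality, and the arms of grey points at low values are regions found in the table of 1 genotype only.

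At the 671 regions the fall was large in every library. The median level was 2.82 in WT clone 57 and 2.13 in WT clone 58, and it was -0.14 in DKO clone 43 and 0.07 in DKO clone 53. The IgG-IgG library had a median of -0.32 at the same regions. The DKO medians were thus close to that of the IgG-IgG library, which comes from a WT clone. The DKO mean was at or below the IgG-IgG level at 225 of the 671 regions (33.5%), while no WT mean was. The median fall was -2.5 (5.65-fold), with quartiles of -2.98 and -2.15 and a range from -5.85 to -1.65, and the values of WT and DKO clones did not overlap in any of the 671 regions, as the call largely requires. A median of 328, 209, 58 and 50 reads stood behind the values of clones 57, 58, 43 and 53, and 14 regions had under 20 reads in a WT library. WT clone 57 was above WT clone 58 at 660 of these regions, by a median of 0.7, and by a median of 0.73 at regions where K27-K4 was kept.

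Over genes, 403 of 10003 with a promoter region (within 1.5 kb of a RefSeq start site) had at least 1 region called lower (4.03%), and 26 of the lower promoter regions held the start windows of more than 1 gene. When only regions found in both tables were tested, 203 genes were lower. The number of genes was 234 without WT clone 57, 1162 without WT clone 58, 178 without DKO clone 43 and 215 without DKO clone 53. The largest fall among promoters with at least 20 reads in each WT library was at Pdzrn4, which encodes a protein with PDZ and RING domains. Its region at chr15:92395651-92398950 had levels of 3.71 and 2.83 in WT clones 57 and 58 and of -1.94 and -1.30 in DKO clones 43 and 53, and the IgG-IgG level was 0.51. Both DKO clones were therefore below the level of that library, which comes from WT clone 57 and does not measure background in DKO cells. The difference was -4.89 (SE 0.49, 29.7-fold, adjusted p = 0.00027 in limma). At Esr1, the gene of oestrogen receptor alpha, the region at chr10:4711651-4714050 lies 1493 bases from a start site. It had levels of 4.23 and 3.19 in the WT clones and -1.41 and -0.19 in DKO clones 43 and 53, a difference of -4.51 (SE 0.48, 22.8-fold, adjusted p = 0.000323). Esr1 had the highest WT level of the 12 promoters with the largest falls.

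Dab1, an adaptor of Reelin signalling that guides migrating neurons, had levels of 3.39 and 2.78 in WT clones 57 and 58 and of -1.86 and -0.85 in DKO clones 43 and 53 (difference -4.44, SE 0.49). Slc22a3, an organic cation transporter, had 3.56 and 2.66 against -1.26 and -1.30 (difference -4.39, SE 0.46). Gp5, a subunit of the platelet receptor for von Willebrand factor, had 3.69 and 2.74 against -1.67 and -0.67 (difference -4.39, SE 0.48). In these 3 genes the region covered the start site itself and was between 3600 and 4650 bp wide. Svep1, a secreted matrix protein, had 3.64 and 2.85 in the WT clones against -1.81 and -0.45 in DKO clones 43 and 53. Twist2, a basic helix-loop-helix factor of mesenchyme, had 4.04 and 3.18 against -0.47 and -0.49 (difference -4.09, SE 0.42, adjusted p = 0.00027). Rhoj, a small GTPase of endothelial cells, had 2.88 and 2.41 against -1.29 and -1.26, where both DKO values still lay above the IgG-IgG level of -2.97. Frmd4b, Sstr4, Fem1al and Qrfprl complete the 12, with differences between -4.16 and -3.97. At each of the 12 both WT clones lay above both DKO clones by more than the spread within a genotype, and adjusted p-values ran from 0.00027 to 0.000606. All 12 regions were listed for WT cells only and were chosen for their large falls. Their direction was thus close to fixed, and the clone values and p-values serve as a description only. The Qrfprl call was lost without WT clone 57 (adjusted p = 0.0593), those of Fem1al (0.0566) and Rhoj (0.072) with all 8 reChIP libraries in 1 fit, and that of Frmd4b (0.0509) without the variance trend and robust estimation.

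**Figure D2:**
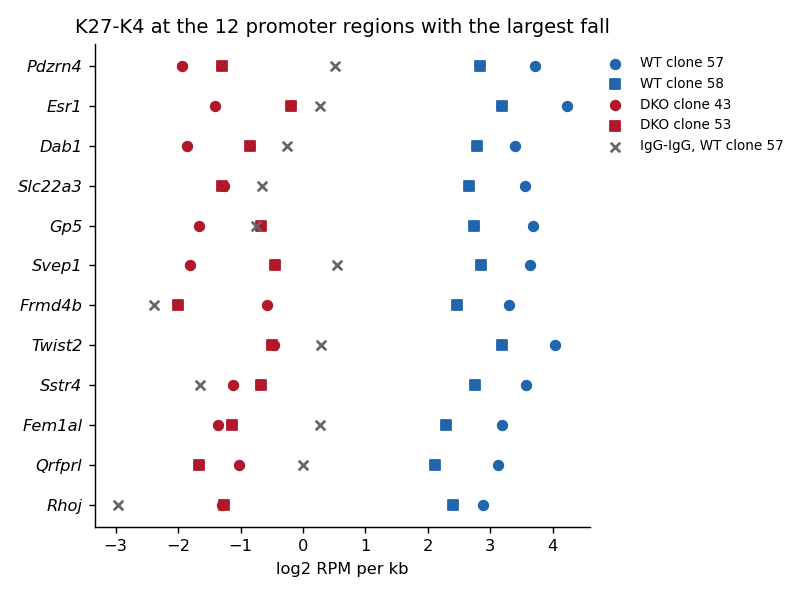
K27-K4 level (log2 RPM per kb, x axis) in each clone at the 12 promoter regions with the largest fall, with the IgG-IgG library of WT clone 57 as crosses. WT values lie between 2.11 and 4.23 and DKO values between -2.0 and -0.19. The genotypes are apart at every gene, as the choice of genes by large falls largely requires. The IgG-IgG level lies on either side of the DKO values.

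Fam163a and Tdrd5 lie close together on chromosome 1 and were both bivalent in the WT clones. Fam163a had 3.72 and 2.80 in WT clones 57 and 58 and 0.93 and 0.88 in DKO clones 43 and 53, and was lower by a difference of -2.35 (SE 0.45, adjusted p = 0.00765), a call lost without DKO clone 43 (0.203) or DKO clone 53 (0.231). Tdrd5, a Tudor domain protein of male germ cells, had 3.33 and 2.63 against 2.95 and 2.61 (difference -0.20, SE 0.50, adjusted p = 0.805). Fam163a was called lower and Tdrd5 was not, though the difference between the genes was not tested. The Tdrd5 difference became 0.02 after centring and 0.15 without WT clone 57.

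Genes were then grouped into 36 lists by symbol. Of the 403 lower genes, 110 belonged to a list and 293 to none, and 25 lists held a lower gene. No list was tested as a set, so each share is set beside the 4.03% of all genes with a promoter region. A gene with several promoter regions was counted as lower if any of them was, and the median of a list takes the region with the highest mean level of each gene. Over all genes with a promoter region this median difference was -0.20. The lists differ in WT level, region width and CpG, on which calls also depended, and the part of these in each share was not tested.

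Transcription factors that pattern the embryo make up much of the bivalent chromatin of embryonic stem cells. In 10 families of such factors (Forkhead, Sox, Gata, T-box, Pax, Dlx and Tlx, Nkx, Irx and sine oculis, LIM homeobox and proneural bHLH), 7 of 141 genes were lower (4.96%), with a median difference of -0.53 and values below 0 at 135. Of the 39 Hox genes, which set positions along the body axis, 1 was lower (2.56%) with a median of -0.33. None of 15 Sox, 12 LIM homeobox, 12 Irx and sine oculis, 9 Dlx and Tlx or 5 Gata genes was called. At Lhx4, a LIM homeobox factor of the pituitary, levels were 4.06 and 3.21 in WT clones 57 and 58 and 3.26 and 3.02 in DKO clones 43 and 53 (difference -0.50, SE 0.54, adjusted p = 0.564). At Tlx3, which specifies sensory neurons, they were 3.97 and 3.25 against 3.23 and 2.95 (difference -0.52, SE 0.54, adjusted p = 0.542). In both genes the genotypes overlapped or nearly met, since DKO clone 43 lay above or just below WT clone 58. With an SE of 0.54 in both genes, these values do not show that K27-K4 was the same in the 2 genotypes.

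The 7 lower factors of these families included Tbr1, Tbx4, Foxi2, Pax8, Nhlh2 and Olig3. Tbr1, a factor of neurons in the cerebral cortex, had the largest fall. It had 2.69 and 2.05 in WT clones 57 and 58 and -1.69 and -1.36 in DKO clones 43 and 53 (difference -3.90, SE 0.58, adjusted p = 0.00114). Nhlh2, a factor of hypothalamic neurons, had 3.62 and 2.81 against 0.12 and 0.05 (difference -3.13, SE 0.42). Tbx4, which acts in the developing hindlimb, had 2.95 and 2.13 against 0.30 and -0.56 (difference -2.67, SE 0.45). Pax8, a factor of thyroid and kidney, kept more signal than these, with 3.22 and 2.44 against 0.67 and 1.07, and the difference was -1.96 (SE 0.43, adjusted p = 0.0249). The Tbr1 call was lost without WT clone 57 (adjusted p = 0.0728), and the Tbx4 call without WT clone 57 (0.0509) or DKO clone 53 (0.115) and with all 8 reChIP libraries in 1 fit (0.0706). The Pax8 call was lost after centring (adjusted p = 0.0618), with all 8 reChIP libraries in 1 fit (0.07) and without DKO clone 43 (0.381) or DKO clone 53 (0.207). Olig3, a factor of the dorsal neural tube, had a difference of -1.95 (SE 0.41, adjusted p = 0.0169), and its call was lost with all 8 reChIP libraries in 1 fit (0.0658) and without DKO clone 43 (0.18) or DKO clone 53 (0.352).

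In genes for ligands and receptors, 26 of 312 were lower (8.33%). The largest share was in G protein-coupled receptors for amines, peptides and related ligands, with 16 of 97 (16.5%) and a median difference of -0.66. The count of these receptors was 8 when only regions found in both tables were tested. It was 11 without WT clone 57, 39 without WT clone 58, 9 without DKO clone 43 and 11 without DKO clone 53. Sstr4, a somatostatin receptor, had 3.57 and 2.76 in WT clones 57 and 58 and -1.12 and -0.68 in DKO clones 43 and 53 (difference -4.06, SE 0.43, adjusted p = 0.000288). Htr4, a serotonin receptor, had 3.55 and 2.86 against -0.26 and -0.33 (difference -3.50, SE 0.41, adjusted p = 0.000323). The dopamine receptor Drd5 (-3.05), the muscarinic receptor Chrm2 (-2.54), the neuropeptide Y receptor Npy2r (-2.62) and the somatostatin receptor Sstr2 (-2.37) were also lower. Ligand and receptor families of embryonic patterning had smaller shares, with 1 of 36 Wnt pathway genes (2.78%), 1 of 25 TGF-beta superfamily ligands (4.0%), 2 of 24 FGF genes (8.33%) and 1 of 63 axon guidance genes (1.59%). Bmp3, a BMP family member that opposes others of its family, had 3.51 and 2.66 against -0.67 and -0.31 (difference -3.57, SE 0.42). Wnt16, a Wnt ligand of bone, had 3.62 and 2.67 against 0.36 and 0.58 (difference -2.68, SE 0.43, adjusted p = 0.00235), and its call was lost without DKO clone 43 (0.12) or DKO clone 53 (0.0636).

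In genes for channels and transporters, 33 of 377 were lower (8.75%). They comprised 13 of 83 potassium channel genes (15.7%, median difference -0.48), 18 of 214 solute carriers (8.41%, median -0.16), 2 of 47 genes named for glutamate, GABA or glycine receptors (4.26%) and 0 of 33 sodium and calcium channels, whose median difference was -0.31. When only regions found in both tables were tested, 7 potassium channel genes and 6 solute carriers were lower. Without WT clone 57, WT clone 58, DKO clone 43 and DKO clone 53 in turn, 7, 26, 5 and 9 potassium channel genes and 12, 39, 4 and 8 solute carriers were lower. The potassium channel genes that were lower included modifier subunits, which form no channel alone but alter other channels. Kcng2, one of these, had 3.85 and 3.01 in WT clones 57 and 58 and -0.34 and -0.32 in DKO clones 43 and 53 (difference -3.76, SE 0.42, adjusted p = 0.000314). Kcns1, another, had 3.27 and 2.41 against -0.33 and -0.17 (difference -3.09, SE 0.42). Of the solute carriers, Slc6a11, a GABA transporter, was lower by -3.31, Slc6a2, the noradrenaline transporter, by -2.57, and Slc18a2, the vesicular monoamine transporter, by -2.38. At Cacna1b, the neuronal calcium channel gene with the highest WT level of its list, values were 4.26 and 3.26 against 3.89 and 3.44, and the genotypes overlapped (difference -0.09, SE 0.59, with the opposite sign, 0.13, after centring). One of the glutamate receptor entries, Grin1os, is a transcript antisense to Grin1 and not a receptor.

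In genes for adhesion and structure, 21 of 116 were lower (18.1%), with a median difference of -0.66. Of these, 12 were clustered protocadherins, cell surface proteins that give neurons individual identities, out of 55 tested (21.8%). The count was 1 without WT clone 57, 32 without WT clone 58, 3 without DKO clone 43, 2 without DKO clone 53, 3 after centring and 7 with quantile normalisation, and 0 of the 55 were called in K4-K27. Without WT clone 57 its share is below that of all genes. They were unevenly spread over the 3 clusters, with 8 of 21 Pcdhb genes (median difference -1.46), 4 of 22 Pcdhg genes (-0.53) and 0 of 12 Pcdha genes (-0.46). Pcdhb7 had 3.36 and 2.65 in WT clones 57 and 58 and 0.44 and 0.84 in DKO clones 43 and 53 (difference -2.36, SE 0.43, adjusted p = 0.00509). Pcdhb5 had 2.68 and 1.55 against -1.0 and 0.22 (difference -2.50, SE 0.53). The Pcdhb7 call was lost without DKO clone 43 or DKO clone 53 (adjusted p = 0.234 and 0.0951), and that of Pcdhb5 without WT clone 57 or DKO clone 43 (0.127 and 0.158), after centring (0.0764) and after quantile normalisation (0.115). The genes of the clusters are near copies of each other in part, reads that map to several places were removed by the mapping quality filter, and Pcdhga12 and Pcdhgb8 share 1 region. Among claudins, 2 of 9 were lower, Cldn5 of endothelial tight junctions (-2.27) and Cldn11 of myelin (-2.01). The Cldn5 call was lost without DKO clone 43 or 53, and that of Cldn11 without WT clone 57 or DKO clone 43 and after either other normalisation. Col4a3 and Col4a4, basement membrane collagens transcribed in opposite directions from a shared promoter, share 1 region, with 2.82 and 2.16 against 0.01 and -0.88 (difference -2.92, SE 0.46).

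Among germline genes, many of which are silenced by DNA methylation in somatic cells, 8 of 39 were lower (20.5%), with a median difference of -0.85. The count was 3 without WT clone 57, 13 without WT clone 58, 6 without either DKO clone and 0 when only regions found in both tables were tested. They were Syce1, Sycp1, Ddx4, Dmrtb1, Mael, Tdrd6, Taf7l and Slc25a31. Syce1, a part of the synaptonemal complex of meiosis, had 2.53 and 2.05 in WT clones 57 and 58 and -0.93 and -1.78 in DKO clones 43 and 53 (difference -3.64, SE 0.57, adjusted p = 0.00182), a call lost without WT clone 57 (0.067). Dmrtb1, a regulator of entry into meiosis in spermatogonia, had 3.27 and 2.44 against -0.81 and -0.62 (difference -3.57, SE 0.43, adjusted p = 0.000368). Ddx4, the germ cell RNA helicase VASA, was lower by -3.11, Tdrd6, a Tudor protein of the chromatoid body, by -3.16, and Sycp1, a further synaptonemal complex protein, by -2.97. Total H3K4me3 was called lower at 8 genes of this list, of which 5 were among the 8 lower in K27-K4, where 2.93% of all genes with a promoter region were called in total H3K4me3.

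Of other groups, 2 of 32 imprinted genes were lower, Gnas and Gatm. Gnas, which encodes the stimulatory G protein subunit and several imprinted transcripts from separate promoters, was called at 1 region, chr2:174295501-174301650, with 4.29 and 3.44 in WT clones 57 and 58 and 1.29 and -0.15 in DKO clones 43 and 53 (difference -3.29, SE 0.52, adjusted p = 0.00288). The Gnas call was lost without DKO clone 53 (adjusted p = 0.273), and that of Gatm without DKO clone 43 (0.238) or DKO clone 53 (0.0552). Among 139 genes named Zfp, 8 were lower (5.76%), of which Zfp36l3 is not of the C2H2 class. The count of Zfp genes was 5 after centring and 2 when only regions found in both tables were tested. None of 9 pluripotency factors, 14 Polycomb components or 7 ribosomal protein genes with a K27-K4 region was lower. Pcgf5, a Polycomb component, had 3.97 and 3.19 against 3.15 and 2.90 (difference -0.56, SE 0.53). Klf4, a pluripotency factor, had 3.51 and 2.91 against 1.5 and 1.7, so that the clones did not overlap, yet the difference of -1.61 (SE 0.45) had an adjusted p of 0.115, and its K4-K27 difference was -0.35. Klf4 was called lower after quantile normalisation (adjusted p = 0.0102), with the lowest regions left out (0.0403), with voom weights (0.017) and without WT clone 58 (0.00305), while adjusted p-values in the other alternative fits ran from 0.0576 to 0.572.

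**Figure D3:**
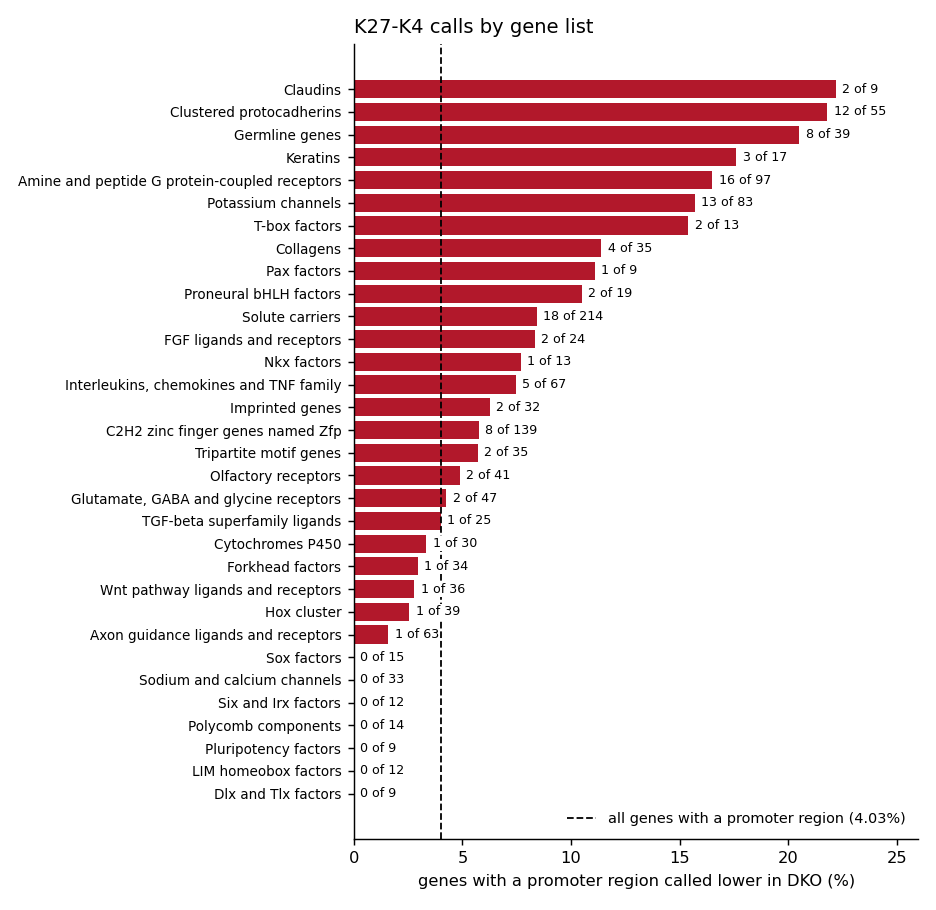
Percent of genes with a promoter region (x axis) at which K27-K4 was called lower in DKO clones, for each list with at least 9 such genes, with the count beside each bar and a dashed line at the 4.03% of all genes. Claudins, clustered protocadherins and germline genes have the longest bars (22.2%, 21.8% and 20.5%), and Sox, LIM homeobox, Dlx and Tlx, and Irx and sine oculis factors have none.

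By position, 382 of the 671 lower regions were at promoters (56.9%), against 21.5% of all regions tested. The share called lower was 3.8% of 10043 promoter regions and 0.788% of 36694 regions away from promoters. Promoter regions were also wider and deeper, with medians of 2250 bp and 131 reads per WT library against 600 bp and 15 reads away from promoters. Among regions with 100 reads or more in each WT library the order was reversed. There 354 of 5205 promoter regions (6.8%) and 217 of 1559 regions away from promoters (13.9%) were lower. That limit was set on WT reads alone, and why the order changed was not tested. The lower share at promoters was 56.3% without WT clone 57 and 30.1% without DKO clone 43. Of the 289 lower regions away from promoters, 47 lay under 5 kb from a start site, 171 at 5 to 50 kb and 71 at 50 kb or more, and 203 lay inside a gene (1.36% of such regions against 0.395% of those outside genes). By chromosome, the share of regions called lower ran from 0.863% on chromosome 19 to 2.21% on chromosome 18.

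The largest fall away from promoters was near Gm21671, a predicted gene, at chr5:25956151-25957500, which is outside RefSeq genes and 1807 bases from a start site. It had 1.69 and 1.36 in WT clones 57 and 58 and -5.13 and -3.53 in DKO clones 43 and 53 (difference -5.85, SE 1.35, adjusted p = 0.0345). These values rest on 69, 59, 0 and 2 reads, so that -5.13 is the entry for 0 reads and the size of the fall depends on it. The call near Gm21671 was lost after centring (adjusted p = 0.0667), with voom weights (0.104) and without WT clone 57 (0.142), WT clone 58 (0.0717) or DKO clone 53 (0.0625). Near Gm1979, another predicted gene on the same chromosome, levels were 4.78 and 3.98 against -0.66 and 0.51 (difference -4.45, SE 0.49, adjusted p = 0.000314), with IgG-IgG at -1.33. Near Zfp991 and inside a gene, the region chr4:147187351-147188250 had 2.62 and 1.55 against -2.81 and -2.36 (difference -4.67, SE 0.97, adjusted p = 0.016), a call lost without WT clone 57 (0.143) and after quantile normalisation (0.0502). Where genes have near-identical copies, as predicted and zinc finger genes often do, only reads with a unique place passed the mapping filter, and such values are uncertain. At the region near Nyx, which encodes nyctalopin of the retina, levels were 3.34 and 2.14 against -2.70 and -0.74 (difference -4.46, SE 0.68), a call lost without WT clone 57 (adjusted p = 0.0858) and with all 8 reChIP libraries in 1 fit (0.0861).

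Lower regions were wider than most regions tested but not wider than kept regions (defined later). The median width of lower regions was 2700 bp (quartiles 1950 and 3900), against 750 bp for all regions and 3450 bp for kept regions. Calls were made at 0.0962% of regions of 450 bp or less and 0.0662% of those over 450 to 1100 bp. The share was 2.32% over 1100 to 2100 bp, 6.53% over 2100 to 5000 bp, 4.73% over 5000 to 10000 bp and 2.85% above. Median reads per WT library rose over these 6 classes, from 11 in the narrowest to 1674 in the widest. Among regions with 100 reads or more in each WT library, the share called lower fell with width. It was 15.5% over 1100 to 2100 bp, 8.89% over 2100 to 5000 bp, 4.76% over 5000 to 10000 bp and 2.85% above. Of regions over 450 to 1100 bp only 1 had that many reads. The separate parts of width, depth and WT level were not tested. The median width of all regions called lower was 1350 bp without DKO clone 43 and 3000 bp without WT clone 57.

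The 3 widest lower regions spanned 12300 to 12750 bp. One covered Gfi1, a zinc finger repressor of blood cell development, at chr5:107716501-107729250, with 3.54 and 2.88 in WT clones 57 and 58 and 0.95 and 0.72 in DKO clones 43 and 53 (difference -2.37, SE 0.43, adjusted p = 0.00552). The Gfi1 call was lost without DKO clone 43 (adjusted p = 0.156) or DKO clone 53 (0.253) and without the variance trend and robust estimation (0.0851). The other 2 lay side by side in the Hoxd cluster. One began 3931 bases from the start of Mir10b, inside a gene, and had 2.46 and 1.91 against 0.32 and 0.45 (difference -1.80, SE 0.40, adjusted p = 0.0278). The other covered the start of Gm14424 and had 3.02 and 2.48 against 1.29 and 0.57 (difference -1.82, SE 0.43, adjusted p = 0.0421). With the region of Hoxd4 (2.57 and 1.96 against 0.67 and 0.49, difference -1.68, SE 0.40, adjusted p = 0.0448) they make 3 adjacent regions, all lower, over 33.8 kb. Hoxd4 was the only one of 10 Hoxd genes with a promoter region to be called. The calls at Hoxd4, near Mir10b and at Gm14424 were all lost after centring (adjusted p = 0.113, 0.0773 and 0.0957), with all 8 reChIP libraries in 1 fit, and without WT clone 57, DKO clone 43 or DKO clone 53.

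The widths of called regions also changed, though the tables may have been called from the same libraries, and these counts describe the calling. At 524 of the 671 lower regions (78.1%) the table of DKO cells held no overlapping region, against 17494 of all 31231 regions in the table of WT cells (56.0%). At the other 147 a median of 57.1% of the width in WT was covered by DKO regions. For comparison, 3170 kept regions were taken from the table of WT cells, with a WT mean between 1.77 and 3.43 (the 5th to 95th percentile of the lower regions) and a difference within 0.5 either way. Of these, 4.04% had no DKO region, and the median coverage was 100%. The kept set was defined after the calls were seen, by a DKO level close to that of WT, so its coverage in DKO cells was nearly set by that choice and it serves as a description only.

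Lower and kept promoters had like WT levels by choice but differed in sequence and in total marks. Lower promoter regions had a median of 2.84 CpG per 100 bases (quartiles 2.48 and 3.38) against 3.67 (2.9 and 4.75) in kept promoter regions, and 3.32 in all promoter regions. Total H3K4me3 in WT was 1.06 at lower and 1.89 at kept promoters (medians), and total H3K27me3 was 1.2 and 0.77. The balance of total H3K4me3 to total H3K27me3 was thus -0.22 at lower promoters and 1.11 at kept promoters (median log2 difference, a relative measure since the marks were precipitated with different antibodies). Away from promoters CpG content was alike, with 3.04 per 100 bases in lower and 2.95 in kept regions.

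Over all 4343 promoter regions of the WT table in this range of WT level, calls followed the same features in steps. With promoters split into 4 groups of equal size from least to most CpG, 16.1%, 10.2%, 4.44% and 1.38% were lower. From the least total H3K4me3 in WT to the most, the shares were 17.1%, 11.8%, 2.86% and 0.368%. From the least total H3K27me3 to the most, they rose from 1.84% to 6.35%, 11.5% and 12.4%. Promoters rich in CpG and H3K4me3 were therefore seldom called, and the features vary together, so that their separate parts were not tested. Away from promoters the shares by CpG were 17.2%, 23.8%, 26.7% and 25.2%, without such a decline.

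**Figure D4:**
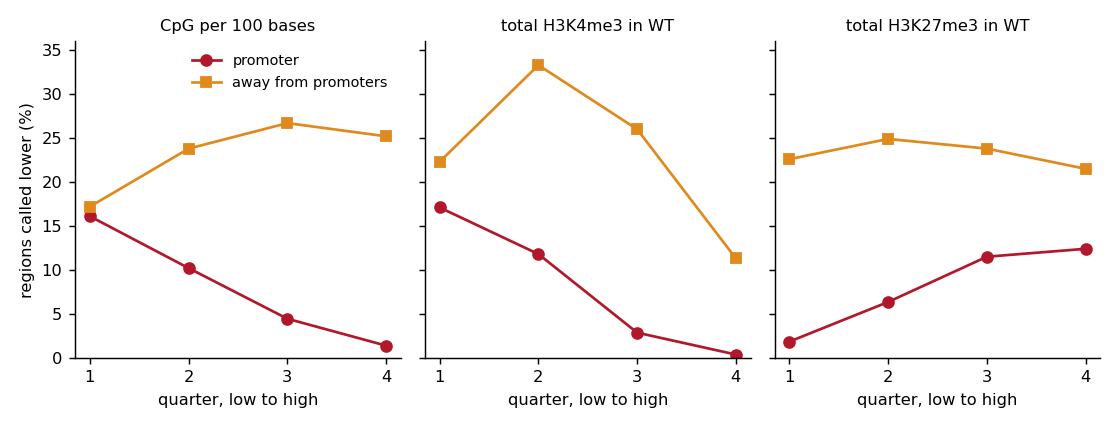
Percent of regions called lower in K27-K4 (y axis) in 4 equal groups by CpG per 100 bases, total H3K4me3 in WT and total H3K27me3 in WT (x axes, low to high), for promoter regions (red) and regions away from promoters (orange) with a WT level between 1.77 and 3.43. At promoters the share drops from 16.1% to 1.38% with CpG and from 17.1% to 0.368% with H3K4me3, and it increases from 1.84% to 12.4% with H3K27me3.

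The other ChIPs of the same clones were not used for the K27-K4 calls, though whether they entered the choice of regions is not known, and total H3K27me3 is a part of the first precipitation of the K27-K4 reaction itself. They had differences below 0 at nearly all of the 671 regions and were called lower at a minority. K4-K27, the reverse order of antibodies, was called lower at 261 (38.9%), against 304 of all 46737 regions (0.65%). The K4-K27 difference was below 0 at 665, with a median of -2.7. Median K4-K27 levels at these regions were 2.34 and 1.93 in WT clones 57 and 58 and -0.66 and -0.52 in DKO clones 43 and 53. Total H3K4me3 was called lower at 326 (48.6%, against 1.78% of all regions) and was below 0 in difference at 662, with a median of -1.82. Its medians were 1.52 and 0.53 in the WT clones and -0.97 and -0.64 in the DKO clones, so WT clone 58 lay between WT clone 57 and the DKO clones. Total H3K27me3 was called lower at 176 (26.2%, against 0.526% of all regions) and was below 0 in difference at 666, with a median of -1.21 and medians per clone of 1.40, 0.81, -0.28 and 0.01. None of the 671 regions was called higher in any of the 3, where 8 (0.0171%), 42 (0.0899%) and 66 (0.141%) of all regions were in K4-K27, total H3K4me3 and total H3K27me3.

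At 82 regions all 3 other ChIPs were called lower as well, and at 226 none was. Without DKO clone 43 the number of regions called lower over all 46737 was 44 for total H3K4me3 and 5 for total H3K27me3, and without WT clone 57 it was 384 and 11. Of the 671 regions, 566 (84.4%) overlapped a total H3K4me3 region in WT and 39 (5.81%) in DKO cells, against 27.9% and 23.1% of all 46737 regions. A K4-K27 region was overlapped by 636 (94.8%) in WT and 83 (12.4%) in DKO cells, against 26.8% and 24.9% of all regions. For total H3K27me3 the numbers were 453 (67.5%) and 130 (19.4%), against 27.2% and 36.9%. At the kept regions none of the 3 was called, with median differences of -0.19, -0.07 and 0.20 in K4-K27, total H3K4me3 and total H3K27me3. By gene group, total H3K4me3 was called lower at 8 of the 97 G protein-coupled receptors and 3 of the 83 potassium channels, and so was K4-K27, each time at genes that were lower in K27-K4 too. K4-K27 was called at 0 of the 55 clustered protocadherins and 0 of the 17 keratins, of which 12 and 3 were lower in K27-K4. Over all genes with a promoter region these calls were made at 2.93% and 1.96%.

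Single genes show how the marks went together. At Gp5, total H3K4me3 was 2.19 and 1.13 in WT clones 57 and 58 and -1.03 in both DKO clones, and total H3K27me3 was 1.86 and 1.01 against -1.28 and -0.89. Both totals were called lower (differences -2.69 and -2.52). At Gnas, K4-K27 (-2.72) and total H3K27me3 (-2.39) were called lower while the total H3K4me3 difference of -0.91 was not. At Dmrtb1 the reverse was seen, with total H3K4me3 called lower at -3.08 and the total H3K27me3 difference of -1.0 not called. Among the 12 promoters with the largest falls, K4-K27 was called lower at 11 and total H3K4me3 at 12, and the exception for K4-K27 was Rhoj (-5.28, SE 1.24, adjusted p = 0.0526).

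**Figure D5:**
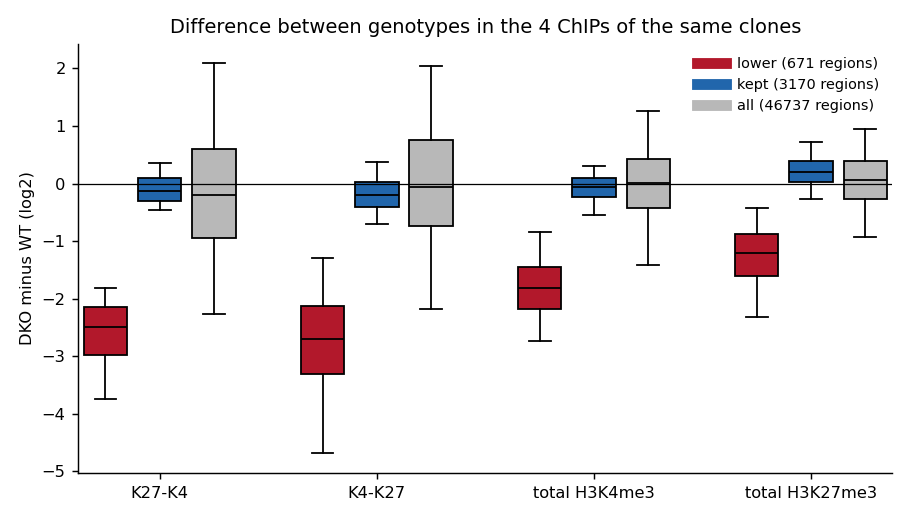
Difference between DKO and WT clones (log2, y axis) in K27-K4, K4-K27, total H3K4me3 and total H3K27me3 at the 671 lower, 3170 kept and all 46737 regions. Boxes show median and quartiles and whiskers the 5th to 95th percentile of regions. Lower regions have medians of -2.5, -2.7, -1.82 and -1.21, and those of kept regions lie between -0.19 and 0.20, where K27-K4 itself was used to choose both sets.

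Whether the fall differed between the 2 orders of antibodies was tested with an interaction term over the 8 reChIP libraries. No region differed at an adjusted p under 0.05 in limma (0.0%), 3459 did at an unadjusted p under 0.05, and the smallest adjusted p was 0.56. The K4-K27 libraries were shallower, with 9242971 to 12987113 reads. They had 0 reads at 5577 to 13994 of the regions, against 198 to 1188 in the K27-K4 libraries. The lack of calls is therefore weak evidence that the orders were alike. With the clone as a replicate block, since both orders come from the same cells, 1 region differed. It covers the promoters of Adhfe1 and Rrs1 at chr1:9545101-9546750, and was singled out after its values were seen. K27-K4 there was 4.87 and 4.02 in WT clones 57 and 58 and 0.64 in both DKO clones, a difference of -3.81 whose call was lost without DKO clone 43 (adjusted p = 0.0563). K4-K27 was 5.40 and 4.44 against 3.66 and 3.22, a difference of -1.48. The interaction was -2.33 (adjusted p = 0.0114 under the block and 0.56 without it), and total H3K4me3 (-0.40) was not called lower there while total H3K27me3 was (-2.50). Rrs1 is a ribosome assembly factor that dividing cells need.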

How the data were processed

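K27-K4 reChIP was compared between WT clones 57 and 58 and DKO clones 43 and 53, with K4-K27, total H3K4me3, total H3K27me3 and 1 IgG-IgG library of the same clones. Per the labels and methods, the authors trimmed reads (Trim Galore 0.6.6), aligned them to mm10 (GRCm38.p6) with BWA 0.7.13, handled them with SAMtools 1.9, marked duplicates with Picard 2.6.0 without removing them and quantified regions in SeqMonk from alignments with a mapping quality over 20, extended by 200 bp. MACS2 and deepTools 3.5.0 are also named. The deposited values are log2 RPM per kb of region, with 0 reads entered as 0.9 reads. The methods describe peak calling with EPIC2 against IgG-IgG, but whether the regions of these tables come from it, and from which libraries, is not given in the sources used here. All values were whole reads within a tolerance of 0.02, so reads per region and library totals were recovered. The annotation columns of the tables were not used.

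Genotypes were compared with limma 3.58.1 in R 4.3.3 (lmFit, eBayes with trend and robust estimation), two-sided, on the 4 libraries of each ChIP, over all 46737 regions and without a filter on low values. A call needed a log2 difference of at least 1 and an adjusted p under 0.05 (Benjamini-Hochberg). limma was used since the tables hold log2 values and not counts. Tested on simulated data, the procedure made no false calls but called only a minority of the changed regions at every size tried. An uncalled region or list is therefore weak evidence of no change. The simulated reads had the same extra spread at every region, no shift between clones, and equal rates in both genotypes at unchanged regions. The real libraries differ in these respects, so the lack of false calls gives no error rate for the 671 regions. The interaction of genotype and order used 8 libraries. Both orders come from the same clone, and deviations of paired libraries correlated at 0.0528 in WT and 0.0363 in DKO clones. A promoter was the stretch within 1.5 kb of a RefSeq start site, and overlap meant at least 1 bp. CpG content and promoter sequences came from GRCm38.p6. Tables were read with Python 3.11.15 and pandas 2.3.3.

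The regions, gene lists and rules were chosen with earlier results of these data known. Named genes were the 12 promoters and 5 other regions with the largest falls among calls with at least 20 reads in each WT library (symbols of predicted genes left out at promoters), the 5 largest rises called, of which there were none, the 3 widest calls, per gene list the 2 largest falls called or otherwise the gene with the highest WT level, Dppa2, Dppa4 and genes of a published browser view. Some of the genes so chosen are not reported here. Further genes called lower were picked from the lists as examples after their values were seen. Counting error of reads enters the tests only through the spread between clones. Alternatives covered scaling, variance model, filters, the regions tested, the libraries in the fit, promoter width and each clone left out.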

Additional observations from a re-analysis of the deposited data

How the results depend on the processing

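All 671 lower regions kept a difference of -1 or lower in every alternative fit that tested them, but which of them were called varied. Dropping both the variance trend and the robust estimation gave 201 regions lower and 238 higher, with 57 of the 671 among them. Leaving out regions under the 0.25 quantile of mean values gave 1033 lower and 13 higher, the WT table alone 1413 and 12, voom weights on recovered reads 1593 and 78, and all 8 reChIP libraries in 1 fit 313 and 7. The DKO table alone gave 85 lower. Centring gave 4 and quantile normalisation 99 higher, and keeping regions above IgG-IgG gave 3 higher. In alternatives added after seeing the data, regions in both tables gave 265 lower and 8 higher, and regions overlapping a K4-K27 region 1305 and 73. These last 2 and the single tables test fewer regions, and the cause of the other shifts was not tested. Leaving out 1 clone gave 387 to 2072 regions lower and 0 to 1706 higher in K27-K4, 84 to 517 lower in K4-K27, 44 to 3844 in total H3K4me3 and 5 to 162 in total H3K27me3. The lone clone left in a genotype is then assumed to vary like the other genotype. Centring gave 545 lower in total H3K4me3 and 53 in total H3K27me3. The share of lower regions at promoters was 63.9% with 5 kb either side, 61.2% after centring, 50.4% for regions overlapping a K4-K27 region and 30.1% to 56.3% without 1 clone. Their median width was 2100 bp in the WT table, 3000 bp after centring, 2550 bp for regions overlapping a K4-K27 region and 1350 to 3000 bp without 1 clone.

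With the clone as a replicate block, the interaction of genotype and order was called at 1 region instead of 0. No paired analysis was possible for DKO against WT because no clone number occurs in both genotypes. Among uncalled genes the sign of small differences changed. Centring and quantile normalisation gave 0.13 and 0.35 at Cacna1b and 0.02 and 0.12 at Tdrd5. Without 1 clone the difference ran from -0.59 to 0.41 at Cacna1b, -0.55 to 0.15 at Tdrd5, -0.99 to 0.04 at Irx5 and -0.49 to 0.7 at Serpine2. Of 60 named loci called lower, between 23 and 59 kept the call in the fits that tested all 60, and none changed sign. Among the lower regions, 14 had under 20 reads in a WT library.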

Other observations

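Some K27-K4 regions were called lower in another ChIP and not in K27-K4. Total H3K4me3 was lower at 507 such regions, with a median difference of -2.33 in total H3K4me3 and of -1.81 in K27-K4, a median width of 900 bp and 16.8% of them at promoters. Their median WT level in K27-K4 was 1.07, against 2.47 at the 671 regions called lower. Total H3K27me3 was lower at 70 such regions (median width 375 bp) and K4-K27 at 43 (median width 1050 bp). In the other direction, total H3K27me3 was called higher at 66 regions (0.141% of all), total H3K4me3 at 42 (0.0899%) and K4-K27 at 8 (0.0171%), each group with a median width of 300 bp.

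By chromosome, the median K27-K4 difference lay between -0.39 (chromosome 18) and -0.05 (chromosome 12) on all chromosomes but chromosome 8, where it was 0.15 over 3122 regions, of which 35 were called lower (1.12%).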
